A study of Mus musculus with 9 samples.

Results

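The genes described here are the mitotic entry cyclins and the enzymes that switch Cdk1 on and off. They were chosen by name as 10 rows of a table of 15184 genes: *Ccna2*, *Ccnb1*, *Ccnb2*, *Ccnf*, *Cdk1*, *Cdc25b*, *Cdc25c*, *Wee1*, *Pkmyt1* and *Mastl*. All 10 were in the table, and each had a value above 10 in every library, so that no member was lost to a filter on low values. The study asked how overexpression of HNRNPK, an RNA-binding protein, acts on cells. The RNA-Seq data hold 9 libraries of polyA+ RNA from mouse embryonic fibroblasts (MEFs): 3 are from empty vector MEFs (Empty), 3 from line SAM1 and 3 from line SAM2. Both lines carry the genotype label Hnrnpk_SAM. All cells derive from WT MEFs transduced with lentiviral vectors of the SAM system, in which an inactive Cas9 and a guide RNA recruit activators to a chosen gene, and were selected with blasticidin and hygromycin. The study used 2 guides against *Hnrnpk* and a nontargeting control, and the labels do not say which guide each line carries. The study prints the same sequence for guide 2 against *Hnrnpk* and for the nontargeting guide, and the sources used here do not settle this. No drug or time course separates the groups, and the labels give no age of the cells. The sources used here do not state whether the libraries of a line came from separate cultures, so p-values measure the spread between libraries, which may be technical. Comparisons of the lines with Empty share the same 3 Empty libraries.

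The values are normalized counts, that is, reads per gene divided by a size factor for each library. Libraries held 41759636 to 49026626 reads on listed genes. *Hnrnpk* itself had 25058 to 26164 normalized counts in Empty, 23619 to 24102 in SAM1 and 26221 to 26859 in SAM2. These ranges did not overlap, and SAM1 lay below Empty. Its log2 fold change against Empty was -0.107 in SAM1, with adjusted p = 0.00252 from limma, and 0.044 in SAM2, with adjusted p = 0.159. SAM2 was higher than SAM1 by 0.151 (adjusted p = 0.000288, limma). Over both lines the change was -0.032 (adjusted p = 0.642, limma), so neither line was called higher than Empty. The study itself reported raised *Hnrnpk* RNA by qRT-PCR and raised protein by Western blot in its SAM MEFs. Since the levels here do not bear out the label in SAM1 or SAM2, groups are named by label, and each direction is stated against the label. All 10 fibroblast markers were listed, with summed normalized counts of 1022260 to 1115776 in Empty, 843472 to 903972 in SAM1 and 1146538 to 1185208 in SAM2. *Fn1*, *Col1a1* and *Col1a2* carry this sum, and single markers went other ways. *Dcn* had means of 11815, 2713 and 2538 in Empty, SAM1 and SAM2, *Pdgfra* 9710, 6403 and 5534, and *Pdgfrb* 6569, 12577 and 9513. Of the 5 epithelial markers 3 were listed, with sums of 388 to 429 in Empty, 3733 to 3884 in SAM1 and 243 to 275 in SAM2. The 5 endothelial markers summed to 428 to 469, 4922 to 5343 and 907 to 977 in the same order. *Cldn4* and *Kdr* held most of these sums in SAM1, while the endothelial marker *Pecam1* was at 25.4 to 32.6 normalized counts there. The only listed blood marker of 5, *Cd68*, lay at 315 to 416 in Empty, 512 to 541 in SAM1 and 543 to 583 in SAM2, and *Ptprc* was not listed. The 2 listed neural markers of 5 summed to 1121 to 1374, 1271 to 1290 and 1099 to 1158. These sums hide opposite changes. *Tubb3* had means of 268.5, 796.5 and 568.6 in Empty, SAM1 and SAM2, and *Map2* 1011, 483 and 568. The part of all these markers in the results was not tested.

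Entry into mitosis is set by Cdk1, a kinase that is active only when bound to a cyclin of the A or B type. While these complexes build up in S and G2 phase, the kinases Wee1 and Pkmyt1 hold them inactive by phosphorylating Cdk1, and phosphatases of the Cdc25 family remove these phosphates at the onset of mitosis. Mastl (Greatwall kinase) acts on the other side of the switch, since it turns on the inhibitors Ensa and Arpp19 of the phosphatase PP2A-B55, which would otherwise reverse the phosphorylations made by Cdk1. Cyclin F, encoded by *Ccnf*, differs from the other cyclins in that it does not activate a kinase but serves as the substrate receptor of an SCF ubiquitin ligase. Most of these genes are transcribed late in the cell cycle, from promoters in which a CCAAT box, bound by NF-Y, and a cell cycle genes homology region (CHR), bound by the DREAM and MuvB complexes, are well known. In bulk RNA, more cells in G2 and M phase and more RNA per cell cannot be told apart. The study measured the phases by flow cytometry and reported an increase in G2/M phase in its SAM MEFs. From these RNA-Seq data it had already reported that genes of the G2/M checkpoint were raised. It also reported polyploid cells, gained chromosomes and chromosomal abnormalities in these MEFs. How far the phases and the chromosome changes bear on the levels given here was not tested.

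The promoters are shown because the boxes named above can be read in them. RefSeq promoter windows (250 bases before to 50 after the start, from a table of GRCm38.p6) were found for 6 of the 10 genes. *Ccna2*, *Cdc25c*, *Pkmyt1* and *Wee1* had no entry. Each window matched GRCm39 at 1 place. The stretches below are the 150 bases before the RefSeq start of the 4 genes with at least 2 CCAAT boxes, 5′ to 3′ in the direction of transcription, with CCAAT (on the other strand ATTGG) and the CHR letters TTTGAA in capitals. For all 4 genes the outermost start in GENCODE lies farther upstream than the RefSeq start.
Cdk1 (GRCm39, chr10:69188743-69188892, minus strand): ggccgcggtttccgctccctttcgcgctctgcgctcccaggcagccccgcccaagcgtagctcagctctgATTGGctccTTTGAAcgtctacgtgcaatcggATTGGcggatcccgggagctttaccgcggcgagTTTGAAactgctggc
Ccnb2 (GRCm39, chr9:70328837-70328986, minus strand): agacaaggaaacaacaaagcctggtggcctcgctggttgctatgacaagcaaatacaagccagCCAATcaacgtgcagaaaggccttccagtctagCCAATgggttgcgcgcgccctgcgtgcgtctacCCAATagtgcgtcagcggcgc
Ccnf (GRCm39, chr17:24470384-24470533, minus strand): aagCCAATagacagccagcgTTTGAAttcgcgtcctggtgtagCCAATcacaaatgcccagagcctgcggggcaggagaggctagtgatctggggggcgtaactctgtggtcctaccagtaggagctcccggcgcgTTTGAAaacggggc
Ccnb1 (GRCm39, chr13:100922995-100923144, minus strand): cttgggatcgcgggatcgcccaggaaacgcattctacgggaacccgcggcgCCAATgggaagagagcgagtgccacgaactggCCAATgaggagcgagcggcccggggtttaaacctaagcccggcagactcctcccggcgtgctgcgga

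CCAAT, searched on both strands, was present in 6 of 6 windows, against 37.4% of all 32851 promoters of the table. It was present at least 2 times in 4 of 6, against 11.7% of all promoters. In *Ccnb2* the boxes began at positions -87, -54 and -21 from the RefSeq start, all on the coding strand and at equal distances. The CHR letters TTTGAA were found in 3 of 6 windows (*Ccnb2*, *Cdk1* and *Ccnf*), against 17.9% of all promoters. In *Ccnf* and *Cdk1* the copies nearest to the start began at -14 and -15. In *Ccnb2* the nearest copy began at 5, after the start and outside the stretch shown. The form TTCGAA occurred in *Cdc25b* only among the 6, at position 8, against 1.56% of all promoters. The tandem of GCGG and, 4 bases later, TTNGAA occurred in *Cdk1* only among the 6, where it overlaps the TTTGAA at -15, against 0.183% of all promoters. *Mastl* held a CCAAT box at -107 on the other strand and none of the other letters in its window. These matches describe letters and not bound sites.

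Of the 10 genes, 9 were higher in both lines than in Empty, and *Wee1* was lower. Over both lines, the 9 rises compare with 26.8% of all genes called higher and the fall of *Wee1* with 27.0% called lower (limma, adjusted p below 0.05). In SAM1 37.3% of all genes were called higher and 36.9% lower, and in SAM2 35.2% and 35.3%. The 6 libraries labelled Hnrnpk_SAM all lay above the 3 Empty libraries in the 9 genes, as in 25.9% of all genes, and all below them in *Wee1*, as in 27.2%. The median log2 fold change of the 10 genes over both lines was 1.24, while that of all genes was 0.009. Scaling each library to equal sums over the listed genes moved the median of all genes to 0.131 over both lines, 0.150 in SAM1 and 0.101 in SAM2. Under that scaling 65.3% of the calls over both lines were rises, against 49.8% as deposited (63.8% against 50.3% in SAM1 and 61.3% against 49.9% in SAM2), and the calls of all 10 genes against Empty stayed on their side. The plot of values by library shows each gene.

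**Figure D1:**
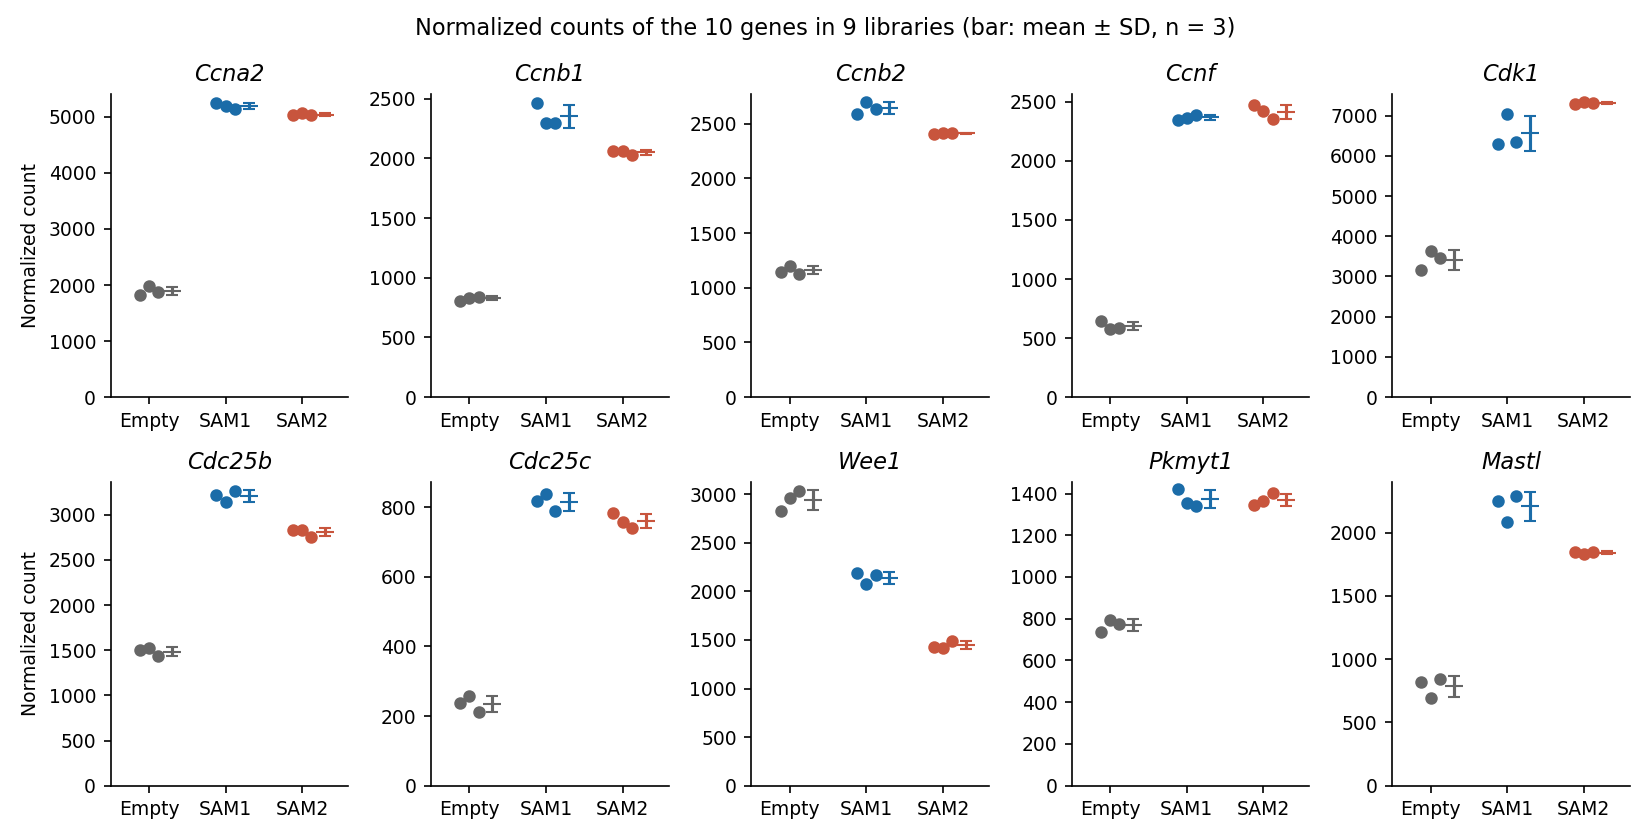
Normalized counts (y axis, from 0) of the 10 genes in each library of Empty, SAM1 and SAM2, with the mean and SD of the 3 libraries beside the points. In 9 genes all SAM1 and SAM2 points lie above the Empty points, and *Wee1* steps down from a mean of 2941 in Empty to 2141 in SAM1 and 1445 in SAM2.

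The cyclin genes rose by between 2.08- and 4.02-fold. *Ccna2* (chromosome 3, 36619014 to 36626299 on GRCm39, minus strand), the A-type cyclin of S and G2 phase, had 1825, 1976 and 1880 normalized counts in Empty, 5244, 5187 and 5135 in SAM1, and 5027, 5063 and 5031 in SAM2. The lines lay close together, far above Empty, and no library overlapped with the other side. Its log2 fold change was 1.46 ± 0.0328 (SE) in SAM1 and 1.41 ± 0.0328 (SE) in SAM2 (adjusted p = 3.21e-13 and 7.39e-13 from limma).

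*Ccnb1* (chromosome 13, 100915153 to 100923116, minus strand) encodes the main mitotic partner of Cdk1. It had 809, 834 and 840 normalized counts in Empty, 2462, 2300 and 2298 in SAM1, and 2064, 2062 and 2028 in SAM2. All SAM1 libraries were above all SAM2 libraries. The log2 fold changes against Empty were 1.51 ± 0.0380 (SE) and 1.31 ± 0.0380 (SE), with adjusted p = 8.93e-13 and 6.16e-12 from limma. *Ccnb2* (chromosome 9, 70314966 to 70328874, minus strand), the other B-type cyclin of dividing cells, had 1146, 1200 and 1130 normalized counts in Empty, 2587, 2697 and 2635 in SAM1, and 2408, 2416 and 2412 in SAM2. It rose less than *Ccnb1* in both lines, with log2 fold changes of 1.19 ± 0.0348 (SE) and 1.06 ± 0.0348 (SE) and adjusted p = 3.89e-12 and 1.87e-11 from limma. Processed pseudogenes of *Ccnb1* and *Ccnb2* are annotated and were not among the listed genes, and how the authors' counting treated reads shared with them is not given in the sources used here.

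*Ccnf* (chromosome 17, 24441157 to 24470458, minus strand) changed most among the 10 genes in both lines. Its normalized counts were 641, 579 and 582 in Empty, 2348, 2364 and 2389 in SAM1, and 2473, 2419 and 2356 in SAM2. SAM1 and SAM2 overlapped each other and stood clear of Empty. The rise was 3.94-fold in SAM1 (log2 fold change 1.98 ± 0.0436, SE, adjusted p = 2.64e-13 from limma) and 4.02-fold in SAM2 (2.01 ± 0.0436, SE, adjusted p = 4.18e-13 from limma). Only 4.64% of all genes rose more in SAM1, and 2.40% in SAM2.

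*Cdk1* (chromosome 10, 69170976 to 69236595, minus strand) encodes the kinase that the A- and B-type cyclins bind. Its rise was smaller than those of *Ccna2* and *Ccnb1* in both lines, and beside *Ccnb2* it was smaller in SAM1 (0.94 against 1.19) and close in SAM2 (1.10 against 1.06). It had 3153, 3632 and 3458 normalized counts in Empty, 6289, 7045 and 6335 in SAM1, and 7279, 7339 and 7312 in SAM2. The SAM2 libraries lay close together, with an SD of 0.411% of their mean, while SAM1 replicate 2 stood above the other SAM1 libraries. The log2 fold change was 0.94 ± 0.0514 (SE) in SAM1 and 1.10 ± 0.0514 (SE) in SAM2 (adjusted p = 1.85e-09 and 5.67e-10 from limma).

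*Cdc25b* and *Cdc25c*, whose products remove the inhibitory phosphates from Cdk1, rose. The third gene of the family, *Cdc25a*, is not a member. It rose in SAM1 (log2 fold change 0.241 with adjusted p = 2.02e-05, limma), while SAM2 (2136 to 2163 normalized counts) overlapped with Empty (2148 to 2163). *Cdc25b* (chromosome 2, 131027866 to 131044913, plus strand), which acts early in mitotic entry, had 1502, 1525 and 1432 normalized counts in Empty, 3225, 3140 and 3263 in SAM1, and 2835, 2835 and 2754 in SAM2. The groups did not overlap, and SAM1 was highest. Its log2 fold change was 1.11 ± 0.0347 (SE) in SAM1 and 0.92 ± 0.0347 (SE) in SAM2 (adjusted p = 7.09e-12 and 7.17e-11 from limma).

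*Cdc25c* (chromosome 18, 34866031 to 34885472, minus strand), which amplifies Cdk1 activation, was the member with the fewest reads, 181 to 244 per library in Empty. Its normalized counts were 238, 256 and 211 in Empty, 819, 839 and 789 in SAM1, and 783, 758 and 741 in SAM2. The lowest SAM2 library was still far above the highest Empty library. The rise was 3.47-fold in SAM1 and 3.23-fold in SAM2 (log2 fold change 1.79 ± 0.0668 and 1.69 ± 0.0668, SE, adjusted p = 3.94e-11 and 1.09e-10 from limma). A long noncoding gene on the opposite strand, *2010110K18Rik*, shares 1153 of the 6065 exon bases of *Cdc25c* and rose as well, at 4 to 6 reads per library in Empty and 19 to 38 in the lines. The strand setting of the authors' counting is not given in the sources used here.

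The inhibitory kinases moved in opposite directions. *Wee1* (chromosome 7, 109721148 to 109747101, plus strand), the nuclear kinase that phosphorylates Cdk1 on tyrosine, had 2831, 2959 and 3033 normalized counts in Empty, 2188, 2071 and 2164 in SAM1, and 1423, 1418 and 1494 in SAM2. The groups formed 3 separate steps with no overlap. The log2 fold change was -0.458 ± 0.0388 (SE) in SAM1 and -1.02 ± 0.0388 (SE) in SAM2 (adjusted p = 1.68e-07 and 7.45e-11 from limma), so that SAM2 held 0.492 of the Empty level. In SAM2 4.6% of all genes fell more, and in SAM1 17.6%. Because the lines differ in *Wee1*, the fit that pools them gave a wider error (-0.741 ± 0.165, SE, adjusted p = 0.00407 from limma).

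*Pkmyt1* (chromosome 17, 23945254 to 23955710, plus strand), the membrane-bound kinase that inhibits Cdk1 on threonine and tyrosine, had 738, 794 and 777 normalized counts in Empty, 1421, 1356 and 1341 in SAM1, and 1343, 1362 and 1402 in SAM2. The lines overlapped and both stood above Empty, 1.78-fold in each. Its log2 fold change was 0.83 ± 0.0428 (SE) in both lines (adjusted p = 9.75e-10 and 1.48e-09 from limma), the smallest rise among the 9 genes. *Paqr4*, on the opposite strand, shares 2694 of the 4310 exon bases of *Pkmyt1*. It did not rise in step: its log2 fold change was -0.424 in SAM1, a fall with adjusted p = 2.38e-06 from limma, and -0.032 in SAM2, with adjusted p = 0.554.

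*Mastl* (chromosome 2, 23004469 to 23046036, minus strand) had 823, 691 and 841 normalized counts in Empty, 2249, 2082 and 2293 in SAM1, and 1850, 1828 and 1846 in SAM2. The Empty libraries spread widely here, with an SD of 10.4% of their mean, yet all 6 other libraries were at least 1828. The log2 fold change was 1.495 ± 0.0645 (SE) in SAM1 and 1.23 ± 0.0645 (SE) in SAM2 (adjusted p = 1.66e-10 and 1.68e-09 from limma). The opposite-strand gene *Acbd5* shares 1106 of 9076 exon bases with *Mastl* and had log2 fold changes of 0.322 and 0.103, with adjusted p = 8.72e-07 and 0.0118 from limma. For *Ccna2* the overlapping gene is *Exosc9* (714 of 4083 exon bases), which was lower in both lines, with log2 fold changes of -0.191 and -0.221.

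**Figure D2:**
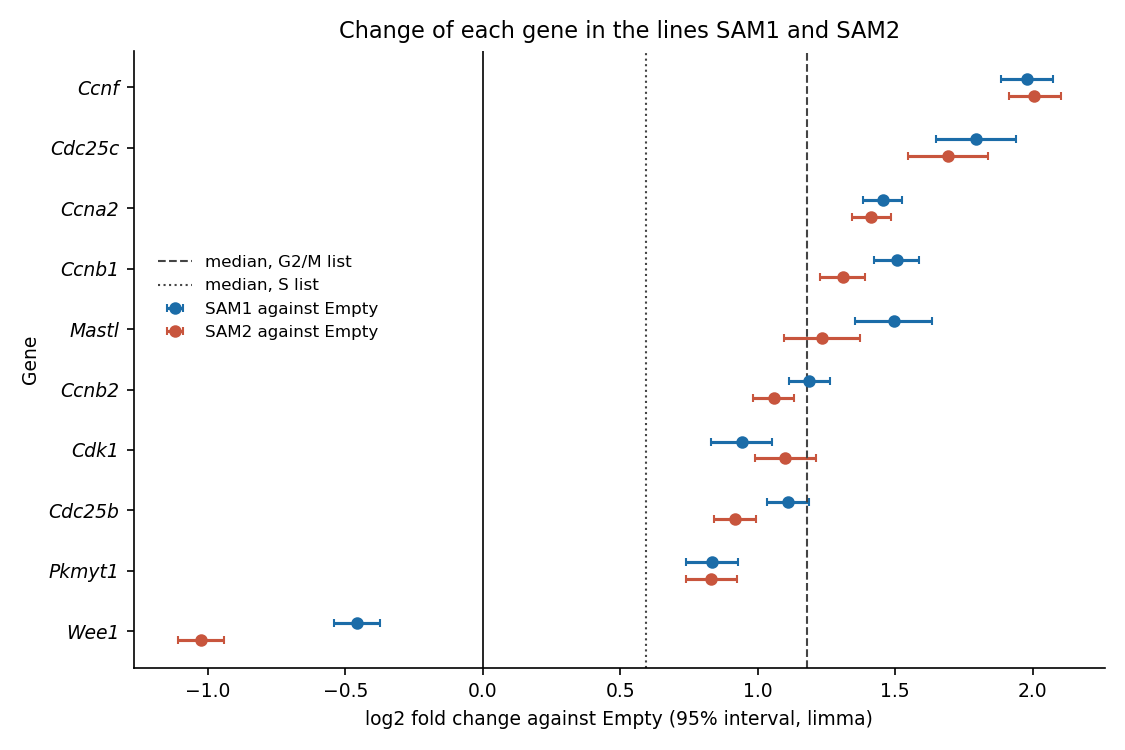
Log2 fold change against Empty (x axis) of each gene in SAM1 and SAM2 with 95% intervals from limma, beside the medians over both lines of a G2/M gene list (dashed, 1.18) and an S phase gene list (dotted, 0.593). *Wee1* is the only gene left of 0, and its SAM1 and SAM2 intervals do not overlap.

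The lines were also compared with each other, to ask where they differ within this group of genes. Between SAM2 and SAM1, 1 gene was higher (*Cdk1*), 5 were lower (*Wee1*, *Mastl*, *Ccnb1*, *Cdc25b* and *Ccnb2*) and 4 were not called. Over all genes 31.1% were higher and 29.2% lower in SAM2, so the share of members called does not stand out. The difference was greatest in *Wee1*, at -0.567 (95% interval -0.651 to -0.483, adjusted p = 5.01e-08 from limma). It was -0.261 for *Mastl* (-0.400 to -0.121, adjusted p = 0.00354 from limma). *Ccnb1* and *Cdc25b* differed by nearly the same amount, -0.197 (-0.280 to -0.115, adjusted p = 0.0006 from limma) and -0.193 (-0.268 to -0.118, adjusted p = 0.000345 from limma). *Ccnb2* differed by -0.130 (-0.205 to -0.054, adjusted p = 0.00591 from limma).

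*Cdk1* went the other way, 0.159 higher in SAM2 (95% interval 0.048 to 0.270, adjusted p = 0.0170 from limma). This call depends on SAM1 replicates 1 and 3, since without SAM1 replicate 1 the difference was 0.130 (adjusted p = 0.0751 from limma) and without SAM1 replicate 3 it was 0.135 (adjusted p = 0.0644 from limma). Quantile normalization (0.111, adjusted p = 0.0949 from limma) and equal sums (0.120, adjusted p = 0.0726 from limma) also ended it. For the genes not called, the 95% intervals of the difference were -0.113 to 0.029 for *Ccna2*, -0.065 to 0.124 for *Ccnf*, -0.245 to 0.045 for *Cdc25c* and -0.096 to 0.089 for *Pkmyt1*.

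Levels of different genes were compared per kilobase of exon (union of the exons of a gene in GENCODE vM39). In Empty the order of mean levels was *Cdk1* (586), *Ccnb2* (521), *Ccna2* (464), *Wee1* (322), *Ccnb1* (193), *Pkmyt1* (178), *Cdc25b* (146), *Mastl* (86.5), *Ccnf* (70.7) and *Cdc25c* (38.8 normalized counts per kilobase). *Wee1* thus stood above *Ccnb1* and *Pkmyt1* in Empty, whose libraries did not overlap with it. In SAM1 *Ccna2* led at 1271 ± 13.4 (SD, n = 3), while *Ccnb2* (1189 ± 24.7, SD, n = 3) and *Cdk1* (1125 ± 72.7, SD, n = 3) overlapped. *Wee1* was in place 9 of 10 there, at 235 ± 6.78 (SD, n = 3) per kilobase, and overlapped with *Mastl* at 243 ± 12.3 (SD, n = 3). With the longest transcript as the length it was in place 8, and *Ccna2* then stood above *Ccnb2* in Empty (608 against 606), *Ccnf* above *Mastl* in Empty (142 against 118) and *Ccna2* above *Cdk1* in SAM2 (1619 against 1592). In SAM2 *Cdk1* (1254 ± 5.15, SD, n = 3) and *Ccna2* (1234 ± 4.78, SD, n = 3) led, and *Wee1* was again in place 9, at 158 ± 4.66 (SD, n = 3), above *Cdc25c* at 125.5 ± 3.48 (SD, n = 3). By the union of exons, *Pkmyt1* and *Cdc25b* in SAM1 and *Ccnf* and *Cdc25b* in SAM2 did not differ beyond their spread. By the longest transcript they did, with *Pkmyt1* at 382 ± 11.8 and *Cdc25b* at 417 ± 8.16 in SAM1 (SD, n = 3). In SAM2 *Ccnf* was then at 572 ± 13.8 and *Cdc25b* at 365 ± 6.09 (SD, n = 3). *Ccnf* also moved from place 7 to place 5 in SAM1 by that length.

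**Figure D3:**
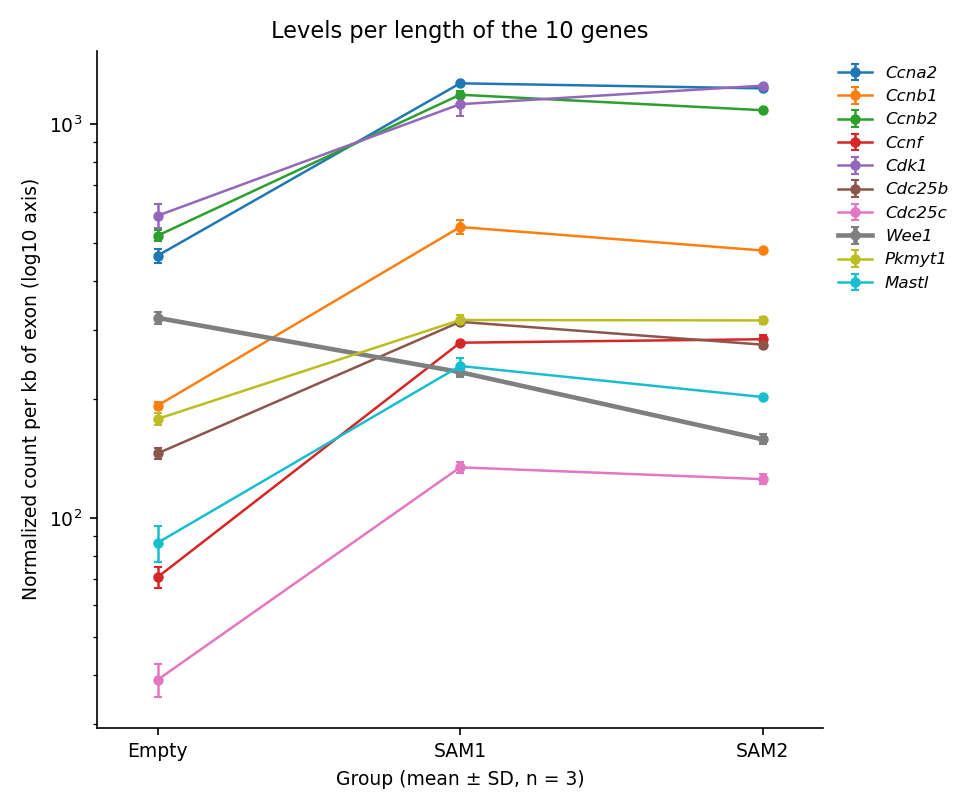
Normalized counts per kilobase of exon (log10 y axis, mean ± SD of 3 libraries) of the 10 genes in Empty, SAM1 and SAM2. The thick line, *Wee1*, runs from 322 in Empty to 235 in SAM1 and 158 in SAM2 and crosses the lines of genes that rose.

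The balance of the inhibitor *Wee1* against its target and against the activators was given by ratios of levels per kilobase, described here with no test. *Cdk1* over *Wee1* was 1.74, 1.92 and 1.78 in Empty, 4.50, 5.32 and 4.58 in SAM1, and 8.0, 8.10 and 7.66 in SAM2. *Ccnb1* over *Wee1* had means of 0.598 ± 0.00948, 2.34 ± 0.0707 and 3.02 ± 0.116 (SD, n = 3) in the same order. *Cdc25b* over *Wee1* had means of 0.453 ± 0.0271, 1.34 ± 0.0200 and 1.74 ± 0.0788 (SD, n = 3). In these ratios, and in those of *Cdc25c* and *Pkmyt1* to *Wee1*, the 3 groups did not overlap and stood in the order Empty, SAM1, SAM2. All of them share *Wee1* as denominator, which fell from 235 per kilobase in SAM1 to 158 in SAM2. Mean levels of *Ccnb1* (548 to 478) and *Cdc25b* (315 to 276) were lower in SAM2 than in SAM1. *Cdk1* (1125 to 1254) was higher, and *Cdc25c* and *Pkmyt1* were not called different. The ratio of the kinases, *Pkmyt1* over *Wee1*, passed 1, going from 0.554 ± 0.0131 in Empty to 1.36 ± 0.0401 in SAM1 and 2.01 ± 0.0246 in SAM2 (SD, n = 3). With the longest transcript as the length, *Pkmyt1* and *Wee1* overlapped in SAM1 (382 ± 11.8 and 369 ± 10.7, SD, n = 3). In SAM2 they were then at 381 and 249, so the passing of 1 in SAM1 depends on the length used. *Pkmyt1* also shares 2694 of its 4310 exon bases with *Paqr4* on the opposite strand. The strand setting of the authors' counting is not given in the sources used here. The level of *Pkmyt1* per kilobase, and where its ratio stands against 1, may therefore depend on how reads there were counted.

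**Figure D4:**
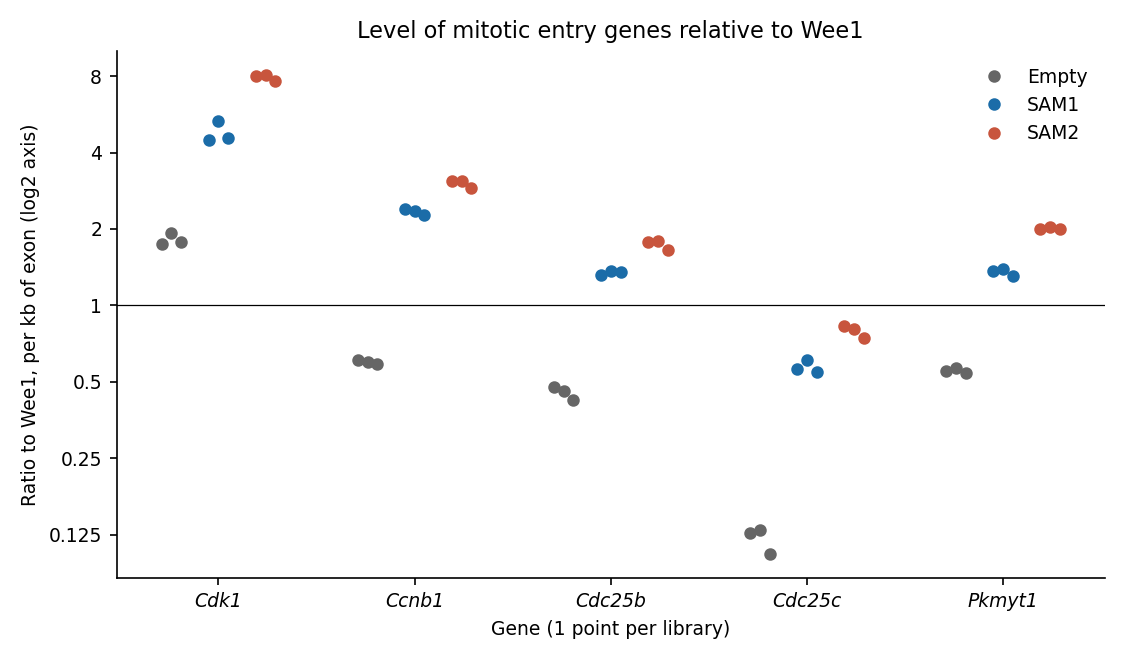
Ratio of the level per kilobase of 5 genes to that of *Wee1* in each library (log2 y axis, 1 point per library, line at 1). In all 5 the points climb from Empty through SAM1 to SAM2, for *Cdk1* from a mean of 1.82 to 4.80 and 7.92.

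Ratios that leave *Wee1* out moved less. *Cdc25b* over *Pkmyt1*, an activator against the other inhibitory kinase, had means of 0.818 ± 0.0410 in Empty, 0.99 ± 0.0356 in SAM1 and 0.868 ± 0.0328 in SAM2 (SD, n = 3). *Ccnb1* over *Cdk1* had means of 0.330 ± 0.0184, 0.489 ± 0.0443 and 0.381 ± 0.00422 (SD, n = 3), so that SAM1 held the most *Ccnb1* per *Cdk1*. *Ccnb1* over *Ccnb2* was 0.370 ± 0.0131, 0.462 ± 0.0271 and 0.440 ± 0.00443 (SD, n = 3).

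The 10 genes were set beside cell cycle gene lists distributed with Seurat. Of the 51 G2/M genes that are not members, 48 were higher over both lines, 2 lower and 1 not called, with a median log2 fold change of 1.18. Of the 43 S phase genes, 33 were higher and 2 lower, with a median of 0.593. Among all genes 26.8% were called higher and 27.0% lower. In both lines *Ccnf*, *Cdc25c*, *Ccna2*, *Ccnb1* and *Mastl* lay above the G2/M median of the line, *Ccnf* by 0.748 in SAM1 and 0.878 in SAM2. *Ccnb2*, *Cdk1*, *Cdc25b* and *Pkmyt1* lay below it, *Pkmyt1* by -0.397 and -0.299, and yet above the S phase median. *Wee1* lay -1.69 and -2.15 from the G2/M median.

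Other genes of the switch were taken from lists written for this report, of which 49 of 55 symbols were in the table, and *Skp1a*, among those absent, is an older symbol of *Skp1*, which was present. Over both lines 24 were higher, 13 lower and 12 not called, with a median log2 fold change of 0.133. All genes had 26.8% called higher and 27.0% lower, so the number that fell is near the background. Of the 5 partners of cyclin-dependent kinases, the small Cks subunits that bind Cdk1 were higher, *Cks2* by 0.727 (adjusted p = 1.71e-05 from limma) and *Cks1b* by 0.398. The other 3, which form the CDK-activating kinase, were lower, among them *Mnat1* by -0.360 and *Ccnh* by -0.304. Of the 5 listed activators and paralogs 4 were higher and 1 was not called. *Bora*, the cofactor through which Aurora A activates Plk1, had 1.64, and *Aurka*, Aurora A itself, 1.39. *Bora* lies on chromosome 14, where the median over the 513 placed genes was 0.547, and its 20 nearest neighbours had a median of 0.946.

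In the pathway below Mastl, the PP2A-B55 arm, 1 of 8 listed genes was higher, 4 were lower and 3 were not called. The shares over all genes were 26.8% higher and 27.0% lower. The targets that Mastl phosphorylates were both lower while *Mastl* rose. *Ensa* had -0.473 (adjusted p = 0.00170 from limma) and *Arpp19* -0.369 (adjusted p = 0.00231 from limma) over both lines. The gene that rose, *Ppp2r2a* (0.841), encodes a B55 subunit and lies on chromosome 14 among 20 neighbours with a median of 1.03. The other B55 gene in the table, *Ppp2r2d*, was lower (-0.260, adjusted p = 0.000201 from limma), so the B55 genes went opposite ways.

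Of 8 listed brakes on entry, 3 were higher, 2 lower and 3 not called. These counts, and those of the 2 lists below, stand beside 26.8% of all genes called higher and 27.0% called lower. The higher genes included *Clspn* (1.26), which helps to activate Chk1, and *Chek2* (0.682), a checkpoint kinase. The lower were *Sfn* (-0.573), the 14-3-3 protein sigma, and *Cdkn1a* (-0.291), which encodes the CDK inhibitor p21. Of 10 listed genes for turnover of cyclins and Wee1, 7 were higher, 1 lower and 2 not called. *Ube2c* (1.69) and *Cdc20* (1.17), an E2 enzyme and an activator of the anaphase-promoting complex, rose most, and *Fbxw11* (-0.353), a β-TrCP F-box protein of the ligase that marks Wee1 for destruction, was lower. *Fbxo5* (1.14), also among the 7 higher, encodes an inhibitor of the anaphase-promoting complex, so the 7 do not all promote turnover. Of 13 regulators that bind CHR or CCAAT boxes or act through them, 7 were higher, 3 lower and 3 not called. *Foxm1* (1.57) and *Mybl2* (1.11), which activate late cell cycle promoters, rose most. Genes of the DREAM and MuvB complexes went both ways. *Lin37* (-0.508), *E2f4* (-0.208) and *Rbbp4* (-0.105) were lower. *Lin9* (0.746), *Rbl1* (0.450) and *Lin54* (0.427) were higher, and *Lin52* (-0.024) and *Rbl2* (0.133) were not called.

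The chromosome segment around each gene was described by its 10 nearest listed genes on each side. The medians of these 20 neighbours lay from -0.310 to 0.509 in SAM1 and from -0.260 to 0.337 in SAM2. *Wee1* had the lowest neighbours in both lines, with medians of -0.310 in SAM1 and -0.260 in SAM2. Of these 20 neighbours, 12 and 11 were called lower, beside 36.9% of all genes in SAM1 and 35.3% in SAM2. Low values were not limited to this segment, since the 1085 placed genes of chromosome 7 had a median of -0.242 over both lines. The neighbours of *Wee1* thus had like medians in both lines, while *Wee1* itself had -0.458 and -1.02. *Ccna2* and *Mastl* had the highest neighbours in SAM1, with medians of 0.509 and 0.345. *Ccnb1* and *Ccnb2* rose among neighbours with medians below 0 in both lines, -0.141 and -0.244 in SAM1.

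**Figure D5:**
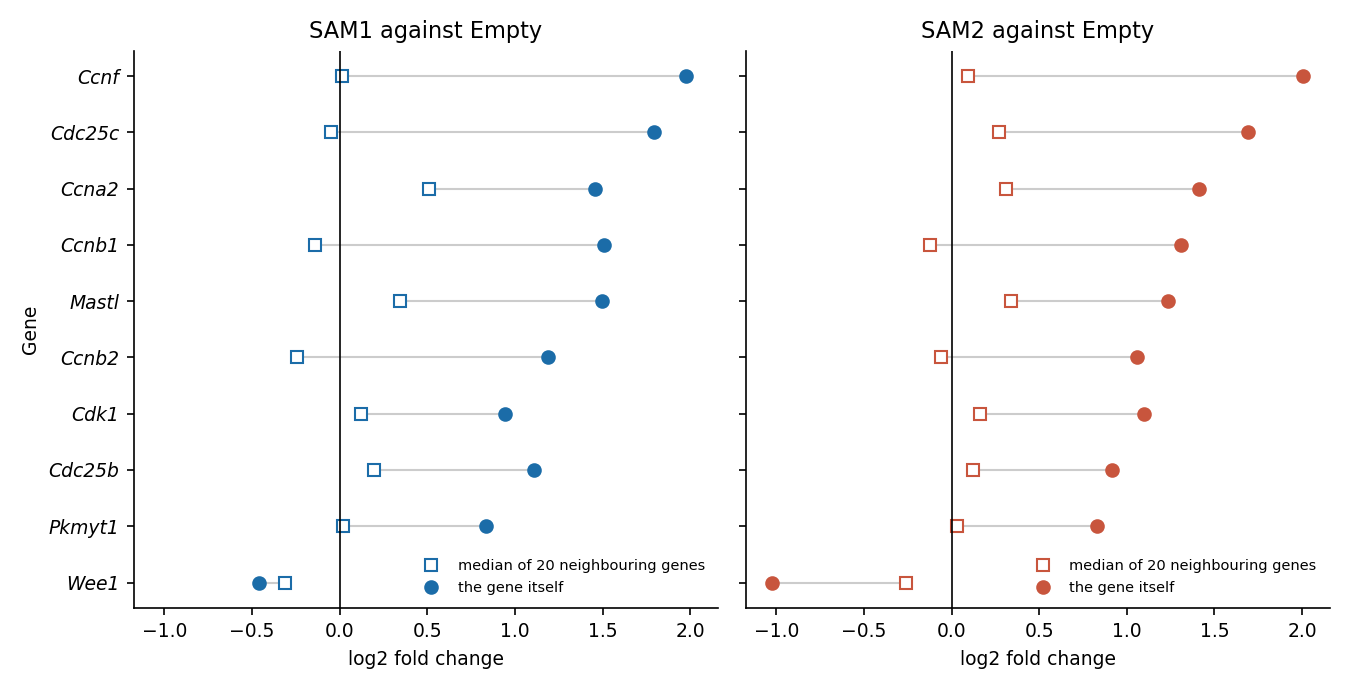
Log2 fold change against Empty (x axis) of each gene (filled circles) and the median of its 20 neighbouring genes (open squares), in SAM1 at left and SAM2 at right. The 9 genes that rose lie to the right of their neighbours, and *Wee1* lies to the left of its neighbours, by less in SAM1 (-0.458 against -0.310) than in SAM2 (-1.02 against -0.260).

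For each gene the gene with the most similar pattern was found by Pearson's r over the 9 libraries, which fall into 3 groups, so r mainly follows the order of the group means. *Wee1* was closest to *Ndn*, r = 0.997, which had -1.70 in SAM1 and -3.69 in SAM2 and thus the same steps on a larger scale. Only 29 genes had r above 0.99 with *Wee1*, against 118 to 255 for 8 of the other genes and 62 for *Cdk1*. *Cdk1* was closest to *Top1mt*. The cyclins *Ccna2*, *Ccnb1*, *Ccnb2* and *Ccnf* were closest to *Myl9*, *Fbln1*, *Nfatc2* and *Bmp1*, which encode a myosin light chain, an extracellular matrix protein, a transcription factor and a procollagen protease. *Cdc25b* was closest to *Ckap2l*, *Cdc25c* to *Dact2*, *Pkmyt1* to *Spc25* and *Mastl* to *Etv5*. *Ckap2l* and *Spc25* encode spindle and kinetochore proteins.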

How the data were processed

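PolyA+ RNA was sequenced in pairs of 43 bases. Per the study's methods and the submitters' processing notes, the authors aligned reads to GRCm39 with TopHat2, used HTSeq for the counts per gene and scaled these by DESeq2 size factors, keeping genes above 10 in at least 30% of libraries. The deposited signal is therefore normalized counts. Whole reads were recovered from the steps of the values (100% whole within 0.001 reads). Groups came from the labels. Libraries of a group differed by more than sampling noise (chi-square per gene 1.455 to 13.79).

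log2(value + 1) was fitted with limma (3.58.1, R 4.3.3, trend) over 15184 genes, with the 6 libraries labelled Hnrnpk_SAM as a group and with 3 groups. P-values are two-sided, with Benjamini-Hochberg adjustment over all genes. Fold changes are of value + 1, so those of low genes are understated. edgeR (4.0.16) and DESeq2 (1.42.0) on recovered reads, other pseudocounts, filters and scalings, a replicate block and leaving out each library were alternatives. The fits were run on simulated counts with few changed genes, the same change in both lines and like noise in all groups. These data differ in all 3 respects, so that run gives no error rate for them. Places are from GENCODE vM39, in which 14791 gene names were found once. Phase lists came from Seurat (5.3.0).

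The members and lists were chosen with earlier results of these data known. Named genes are the members and the 2 largest rises and falls past the threshold in each list. Also named are the most similar gene per member, overlapping genes and markers. *Hnrnpk* was added as the gene targeted. *Cdc25a*, *Ppp2r2d*, *Fbxo5*, *Lin9*, *Lin52*, *Lin54*, *Rbbp4*, *Rbl1* and *Rbl2* were named after their values were seen. Genes removed by the filter of the authors are not analysed here.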

Additional observations from a re-analysis of the deposited data

Results flagged for a closer look

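In 6 of the 10 genes the change against Empty differed between the lines by the test of the difference itself (SAM2 against SAM1, limma, adjusted over all genes). *Wee1* differed by -0.567, *Mastl* by -0.261, *Ccnb1* by -0.197, *Cdc25b* by -0.193 and *Ccnb2* by -0.130 on the log2 scale, with all 3 SAM2 libraries below all 3 SAM1 libraries in each. *Cdk1* differed by 0.159 in the opposite direction, with all 3 SAM2 libraries above all 3 SAM1 libraries, and this call was lost in 4 alternatives. Calls between the lines were common over all genes (31.1% higher and 29.2% lower).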

How the results depend on the processing

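Against Empty, the calls and directions of all 10 genes held in each alternative tried. Over all 4 comparisons, 720 of 730 values of single genes kept direction and side of the threshold. The exceptions were all in SAM2 against SAM1. The count of genes higher there (1, *Cdk1*) was 0 with quantile normalization and 0 with equal sums, and ranged from 0 to 1 when a library was left out. With quantile normalization *Ccna2* became lower in SAM2 (-0.106, adjusted p = 0.0118 from limma). The difference of *Ccnf*, not called, changed sign with quantile normalization (-0.031) and with equal sums (-0.009). That of *Pkmyt1*, not called, changed sign without SAM1 replicate 1 (0.022), without SAM2 replicate 1 (0.010) and without SAM2 replicate 2 (0.000), and ranged from -0.021 to 0.022 over the left-out libraries. The causes were not tested. *Wee1* over both lines stayed between -0.804 and -0.618, with adjusted p up to 0.0203. The fit of the mean of both lines with 3 groups, chosen after seeing the data, gave it adjusted p = 2.79e-10. Per length, *Wee1* in SAM1 was in place 8 with the longest transcript. Against the S list, 9 genes lay above the median in SAM1 and 9 in SAM2, against 5 and 5 for the G2/M list. Before the start, 0 of 6 windows held TTCGAA.

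Libraries share replicate numbers. Deviations of libraries from their group's mean had a mean r of 0.0531 within a number (9 pairs, 0.00237 to 0.117) and -0.0265 between numbers, and 8 of 9 libraries correlated best with their own number, which is a hint from the data of something shared. The labels do not say what a number marks, and not every pair had r above 0.1, the bar set for pairing, so the block was kept as an alternative. With the number as a replicate block, 9 members were higher and 1 lower over both lines, and 7343 genes were called, against 8179 without it. In the other comparisons it raised the calls over all genes, to 11631 from 11275 in SAM1 against Empty, to 11095 from 10699 in SAM2 against Empty and to 9812 from 9162 between the lines. It changed no call of a member. The depth limits *Cdc25c* most, at 181 to 244 reads in Empty.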
